A study of Mus musculus with 12 samples.

Results

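The 10 genes described here encode the subunits of GABP (GA-binding protein) and the regulators of mitochondrial biogenesis that work beside it. They are Gabpa, Gabpb1, Gabpb2, Nrf1, Tfam, Tfb1m, Tfb2m, Ppargc1a, Ppargc1b and Esrra. They were chosen by name, through the mouse Ensembl identifiers of the deposited table, and all 10 were found among its 21899 genes. All 10 passed the filter on low values, which asked for at least 0.3 FPKM (fragments scaled for exon length and for sequencing depth) in at least 3 of the 12 libraries.

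The study measured poly(A) RNA of mouse kidney in 12 libraries, 3 in each of 4 groups. The db/m-GABP-OE group held lean db/m mice, heterozygous for the leptin receptor mutation, in which GABP was to be overexpressed. The db/db-GABP-KD group held obese, diabetic db/db mice, which lack a working leptin receptor, with GABP to be knocked down. The db/db-veh and db/m-veh groups held mice of those genotypes given vehicle. Which subunit was targeted, by what agent, in which cells, and at what age the mice were studied were not given in the sources used here. Tissue came from 6 mice per group, with 3 tissues mixed per extraction, so the 3 libraries of a group may share animals or be repeats of 1 pool, and p-values then measure only the spread between libraries.

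GABP is assembled from an alpha subunit, which binds DNA through an ETS domain, and a beta subunit, which carries the activation domain. It was also named nuclear respiratory factor 2 and is not the same protein as Nfe2l2, just as Nrf1 here is nuclear respiratory factor 1 and not Nfe2l1. Both factors bind promoters of nuclear genes for the respiratory chain and for mitochondrial DNA upkeep, and the PGC-1 coactivators, with the nuclear receptor ERR-alpha, are known to drive such genes in tissues with a high oxidative demand such as kidney tubule.

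The promoters of these genes show where letters known as sites of both factors lie. RefSeq promoter windows (build GRCm38.p6, 250 bases before to 50 after a start) matched 9 of the 10 genes by symbol, all but Ppargc1b, in 11 windows. Both strands were searched for CCGGAAGT, a GABP site, for CGGAAG, the ETS core that also lies within CCGGAAGT, and for GCATGCGC, a site of NRF1. CCGGAAGT was in 3.89% of all 32851 promoters, CGGAAG in 16.9% and GCATGCGC in 2.71%. Only these exact letters were searched. Gabpb1, Nrf1, Ppargc1a and Tfb1m had no match. Stretches before the start are shown for the genes with a match and, of those without, for Tfb1m, with matches in capitals.
Gabpa, chr16:84835024-84835123, plus strand: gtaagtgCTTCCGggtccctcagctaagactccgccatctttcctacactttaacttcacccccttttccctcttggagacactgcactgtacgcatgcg
Gabpb2, chr3:95218123-95218152, minus strand: ggtcccgaatagCGGAAGcaagattctccc
Tfam, chr10:71238073-71238102, minus strand: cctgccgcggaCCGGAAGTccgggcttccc
Tfb1m, chr17:3557782-3557881, minus strand: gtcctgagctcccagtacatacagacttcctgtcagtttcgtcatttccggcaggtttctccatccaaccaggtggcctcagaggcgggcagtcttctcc
Tfb2m, chr1:179546277-179546369, minus strand: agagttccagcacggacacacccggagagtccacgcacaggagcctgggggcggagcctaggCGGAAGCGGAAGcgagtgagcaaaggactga
Esrra, chr19:6921824-6921853, minus strand: ccccctgttttGCATGCGCaggccggcccc

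Among the 9 genes searched, CCGGAAGT was found in Tfam alone, starting at base -47, where -1 is the last base before the RefSeq start. Tfb2m held CGGAAG at bases -31 and -25, side by side, once more on the opposite strand at base 37, and GCATGCGC at base 14. Gabpa held CGGAAG at base -93 on the opposite strand. Gabpb2 held it at base -198 on its own strand, and Esrra held GCATGCGC at base -34. RefSeq and GENCODE starts differ for some genes, and the stretches of Gabpa and Tfam lie inside the GENCODE gene spans given below. A match of letters is a description and does not show binding in these kidneys.

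Each library held 6.78 to 9.70 M fragments (M, 1e6). The 13 mitochondrially encoded genes took 47.9% of fragments in db/db-GABP-KD 1, the lowest share, and 86.0% in db/db-veh 2, the highest. As deposited, the median log2 fold change over the 12897 genes tested was 0.38 for db/m-GABP-OE compared with db/m-veh, 0.42 for db/db-GABP-KD compared with db/db-veh and -0.24 for db/db-veh compared with db/m-veh, and the part of the mitochondrial share in these shifts was not tested. After median of ratios scaling, which divides each library by a size factor taken over 5884 genes above 1 FPKM in every library, these medians were 0.04, 0.00 and 0.01. Size factors ran from 0.529 in db/db-veh 2 to 1.71 in db/db-GABP-KD 1. The 8 proximal tubule markers were measured in every library, as kidney tissue would have them. Of 12 markers of fat, muscle, adrenal gland and red blood cells, Cyp11b1, Cyp11b2 and Myh4 were listed at 0 in all 12 libraries. The adrenal gene Star had 0.0566 to 0.789 FPKM, the brown fat gene Ucp1 reached 2.96, the fat gene Adipoq 2.88 and the muscle gene Acta1 0.385, and the hemoglobin gene Hba-a1 had 22.2 to 631 FPKM.

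All 10 genes were measured at low to middling levels apart from Esrra. Averaged over the 12 libraries, Esrra had 12.9 FPKM, above 90.3% of the genes tested, and Tfb1m had 0.544 FPKM, above 14.6%. Between them came Tfb2m with 4.52, Gabpa with 2.99, Ppargc1a with 2.89, Tfam with 2.61, Gabpb1 with 1.57, Ppargc1b with 1.26, Nrf1 with 1.03 and Gabpb2 with 0.580 FPKM. Only some neighbours in this order kept it in at least 10 of the 12 libraries. Esrra was above Tfb2m in 11 of 12 libraries, Tfb2m above Gabpa in 10, Tfam above Gabpb1 in 11 and Nrf1 above Gabpb2 in 10. Gabpa was above Ppargc1a in 6 of 12, Ppargc1a above Tfam in 8, Gabpb1 above Ppargc1b in 8, Ppargc1b above Nrf1 in 7 and Gabpb2 above Tfb1m in 8, so the order of those pairs varied between libraries. None of these orders was tested.

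The fragments behind these values differed widely between genes. Over all 12 libraries, Esrra rested on 5694 fragments and Tfb1m on 197. In single libraries, Tfb1m had 8 to 28 fragments and Nrf1 22 to 211. For Tfb1m in db/db-veh the 30 fragments of the group had an exact 95% interval of 20.2 to 42.8, which covers counting error only, since copies made by PCR were not told apart.

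**Figure D1:**
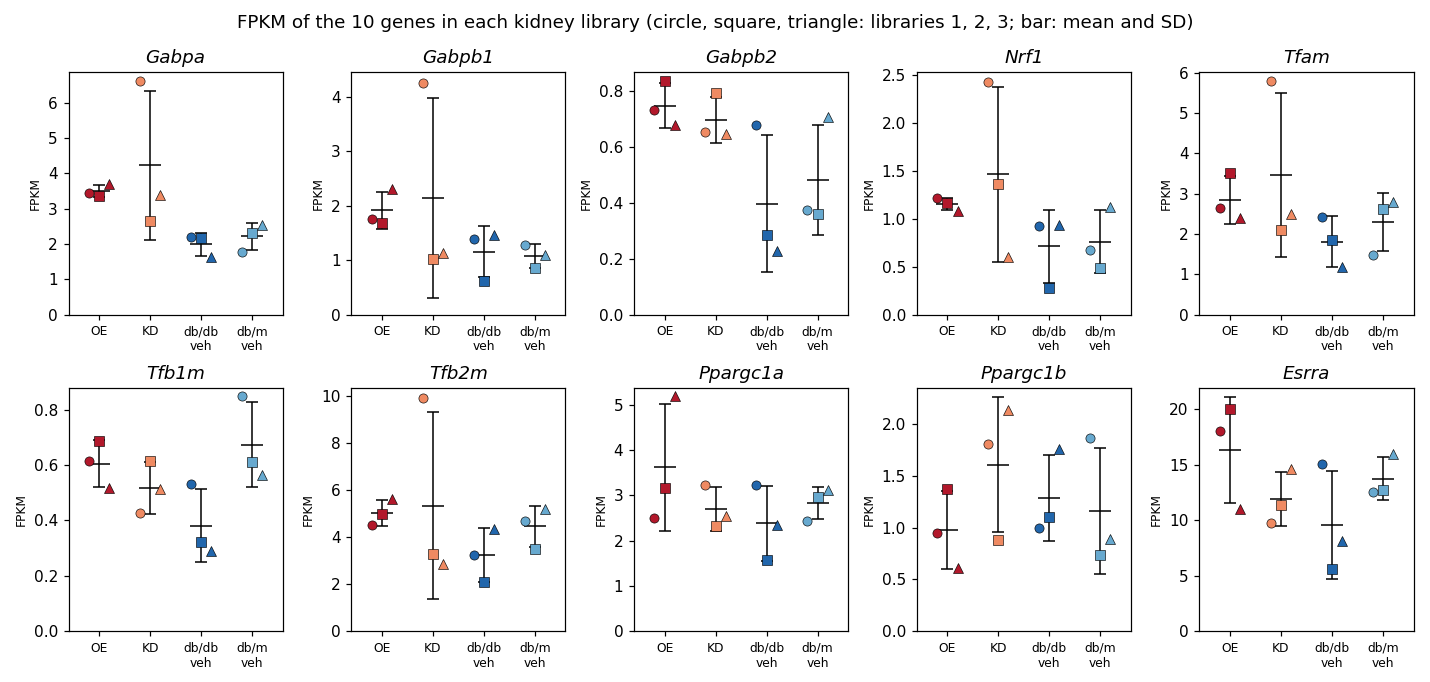
FPKM as deposited (vertical axis, from 0, scaled per gene) of the 10 genes in each library, by group (OE, db/m-GABP-OE; KD, db/db-GABP-KD; db/db veh; db/m veh); bars give the mean and SD of 3 libraries. The circle for db/db-GABP-KD 1 stands above every other library for Gabpa, Gabpb1, Nrf1, Tfam and Tfb2m, at 6.62 FPKM for Gabpa.

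None of the 10 genes passed the test in any comparison. In db/m-GABP-OE compared with db/m-veh, 0 of 10 passed limma at an adjusted p under 0.05, where 1.9% of all genes tested did, and the adjusted p values of the 10 ran from 0.435 to 0.849. In db/db-GABP-KD compared with db/db-veh, 0 of 10 passed, against 0% of all genes, with limma adjusted p values of 0.345 to 0.749. In db/db-veh compared with db/m-veh, 0 of 10 passed, against 0.093% of all genes, with limma adjusted p values of 0.517 to 0.984. An unadjusted limma p under 0.05 was found for 0, 1 and 0 of the 10 in these comparisons, where 15.1%, 14.3% and 11.5% of all genes had one, and the 1 was Gabpa in db/db-GABP-KD, at 0.0222. By voom on recovered fragments, which left out Esrra, 0 of 9 passed in each comparison, against 0.491%, 0% and 0.0396% of the 12621 genes in that fit. In it 0, 2 and 0 of the 9 had an unadjusted p under 0.05, against 14.2%, 14.9% and 12% of all genes. After median of ratios 0 of 10 passed as well, against 0.209%, 0.0388% and 0.171% of all genes, and 0 had an unadjusted p under 0.05, against 7.53%, 6.48% and 12%.

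**Figure D2:**
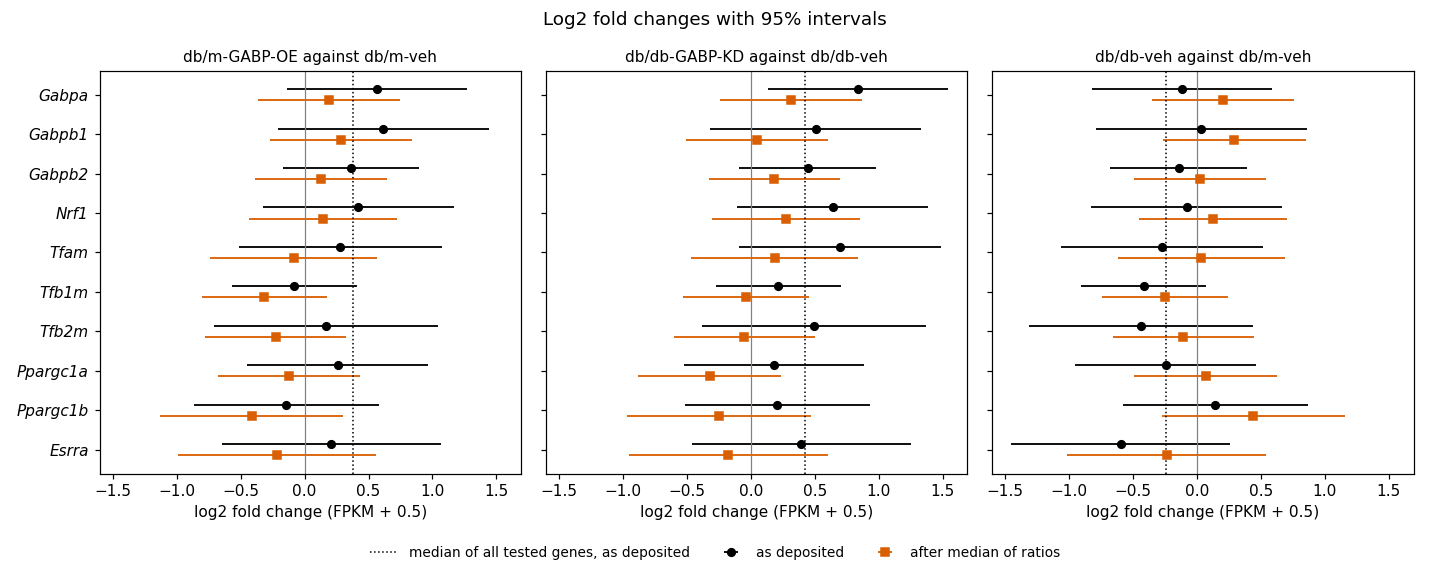
Log2 fold changes of the 10 genes on the log2(FPKM + 0.5) scale with 95% intervals from limma, 3 libraries per group, as deposited (circles) and after median of ratios scaling (squares); the dotted line is the median of all 12897 genes tested as deposited. Gabpa in db/db-GABP-KD, at 0.84 as deposited, is the only value whose interval lies clear of 0, and its scaled interval runs from -0.24 to 0.87.

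Gabpa (ENSMUSG00000008976, GRCm38 chr16:84834925-84863779, plus strand) encodes the subunit that binds DNA. It had 3.45, 3.35 and 3.71 FPKM in the 3 db/m-GABP-OE libraries, against 1.79, 2.32 and 2.54 FPKM in db/m-veh. The db/m-GABP-OE libraries did not overlap with db/m-veh and had 1.58 times its mean. It had 6.62, 2.66 and 3.40 FPKM in db/db-GABP-KD, against 2.20, 2.17 and 1.63 FPKM in db/db-veh. The libraries labelled GABP-KD all lay above their vehicle libraries, with 2.12 times the mean, or 1.52 times without db/db-GABP-KD 1. A lower Gabpa level was thus not seen under that label, and db/db-GABP-KD is used below as the name the libraries carry. Both ratios had an exact two-sided permutation p of 0.1, the smallest that 3 against 3 libraries allow. The groups overlapped in both comparisons after median of ratios, where db/m-GABP-OE had 2.73, 2.57 and 2.79, against 1.83, 2.81 and 2.34 in db/m-veh. On that scale db/db-GABP-KD had 3.86, 3.00 and 3.71, against 2.38, 4.10 and 2.02 in db/db-veh.

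Where the libraries of a pair of groups did not overlap, the counts among the 10 were close to those among all genes. As deposited, Gabpa and Gabpb1 were the 2 of 10 with every db/m-GABP-OE library above every db/m-veh library, where 30.4% of all genes tested were, and 0 of 10 were below, where 0.923% were. Gabpa was the 1 of 10 above in db/db-GABP-KD, where 17.3% of all genes were, and 0 were below, where 0.822% were. Tfb1m was the 1 of 10 below in db/db-veh relative to db/m-veh, where 14.4% were, and 0 were above, where 1.46% were. With scaled values, 0 were above in db/m-GABP-OE (all genes 9.72%) and Tfb2m was below (4.7%), 0 were above in db/db-GABP-KD (4.63%) and Ppargc1a was below (5.67%), and for db/db-veh 0 were above (8.3%) and 0 below (9.03%).

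Gabpb1 (ENSMUSG00000027361, chr2:126627442-126676337, minus strand) encodes a beta subunit. It had 1.76, 1.69 and 2.31 FPKM in db/m-GABP-OE, against 1.28, 0.852 and 1.11 FPKM in db/m-veh, with no overlap and 1.78 times the mean (exact permutation p = 0.1). Scaled by median of ratios, the ratio was 1.32, the groups overlapped and the exact permutation p was 0.2. It had 4.26, 1.02 and 1.14 FPKM in db/db-GABP-KD, against 1.39, 0.619 and 1.46 FPKM in db/db-veh. The db/db-GABP-KD mean rested on its first library: the ratio of means was 1.85 with it and 0.934 without it.

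Gabpb2 (ENSMUSG00000038766, chr3:95181766-95217916, minus strand) encodes the other beta subunit and had the lower mean FPKM of the pair. It had 0.730, 0.833 and 0.678 FPKM in db/m-GABP-OE, against 0.375, 0.361 and 0.706 FPKM in db/m-veh. It had 0.651, 0.791 and 0.644 FPKM in db/db-GABP-KD, against 0.677, 0.285 and 0.227 FPKM in db/db-veh. The groups overlapped in both comparisons, through db/m-veh 3 and db/db-veh 1, and unlike Gabpa and Gabpb1 it was not highest in db/db-GABP-KD 1.

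The ratio of beta to alpha subunit transcripts within a library does not depend on how libraries are scaled. Gabpb1 per Gabpa, as a ratio of FPKM, was 0.510, 0.504 and 0.624 in db/m-GABP-OE, against 0.718, 0.367 and 0.435 in db/m-veh. It was 0.644, 0.384 and 0.334 in db/db-GABP-KD, against 0.630, 0.286 and 0.899 in db/db-veh. The group means were 0.546 ± 0.0679 (SD, n = 3) in db/m-GABP-OE, 0.454 ± 0.166 in db/db-GABP-KD, 0.605 ± 0.307 in db/db-veh and 0.506 ± 0.186 in db/m-veh. The exact permutation p was 0.6 for db/m-GABP-OE compared with db/m-veh, 0.7 for db/db-GABP-KD compared with db/db-veh and 0.9 for db/db-veh compared with db/m-veh. Gabpb2 per Gabpa averaged 0.214 ± 0.0329 in db/m-GABP-OE, 0.195 ± 0.0995 in db/db-GABP-KD, 0.193 ± 0.0991 in db/db-veh and 0.214 ± 0.0614 in db/m-veh, with an exact permutation p of 0.9, 1.0 and 0.6 in the same 3 comparisons. The FPKM of Gabpa was thus above that of each beta subunit in all 12 libraries, and the groups overlapped. FPKM divides by all exon bases of a gene, 5687 for Gabpa, 7752 for Gabpb1 and 15465 for Gabpb2, whichever isoforms are expressed. A ranking of transcript numbers is therefore not shown.

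**Figure D3:**
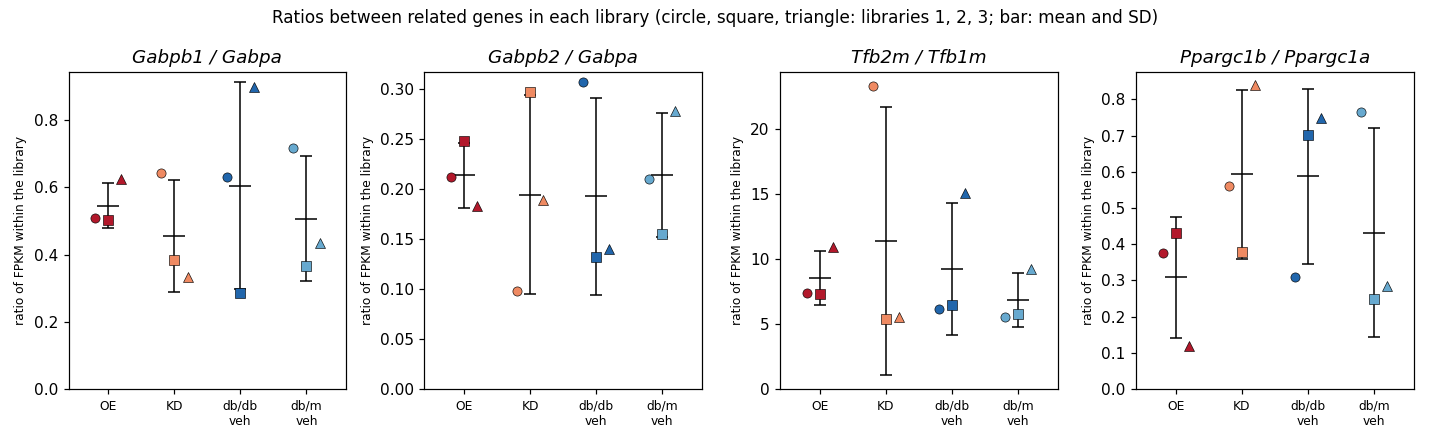
Ratio of FPKM within each library (vertical axis, from 0) for Gabpb1 to Gabpa, Gabpb2 to Gabpa, Tfb2m to Tfb1m and Ppargc1b to Ppargc1a, by group, with the mean and SD of 3 libraries. The groups overlap in all 4 panels, and the ratio of Tfb2m to Tfb1m is highest in db/db-GABP-KD 1, at 23.3.

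Nrf1 (ENSMUSG00000058440, chr6:30047988-30153458, plus strand) encodes nuclear respiratory factor 1. It had 1.22, 1.16 and 1.09 FPKM in db/m-GABP-OE, against 0.681, 0.485 and 1.13 FPKM in db/m-veh. It had 2.43, 1.37 and 0.609 FPKM in db/db-GABP-KD, against 0.932, 0.278 and 0.937 FPKM in db/db-veh. The db/m-GABP-OE libraries lay close together, with an SD of 5.65% of their mean, while the db/db-GABP-KD libraries had an SD of 62.2% of theirs. Both comparisons overlapped, and the log2 fold changes were 0.42 (SE 0.35) and 0.64 (SE 0.35), with limma adjusted p values of 0.565 and 0.363.

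Ppargc1a (ENSMUSG00000029167, chr5:51454250-51567726, minus strand) encodes PGC-1alpha, a coactivator of both nuclear respiratory factors. It had 2.503, 3.17 and 5.19 FPKM in db/m-GABP-OE, against 2.44, 2.96 and 3.12 FPKM in db/m-veh. It had 3.23, 2.32 and 2.55 FPKM in db/db-GABP-KD, against 3.22, 1.58 and 2.35 FPKM in db/db-veh. The groups overlapped in both, and db/m-GABP-OE 3 was the highest of all 12 libraries. Scaled, the db/db-GABP-KD libraries had 1.89, 2.61 and 2.78, all below the 3.48, 2.98 and 2.92 of db/db-veh, where 5.67% of all genes were likewise below. The ratio of means on that scale was 0.775 (exact permutation p = 0.1), or 0.861 without db/db-GABP-KD 1, and the limma adjusted p was 0.893.

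Ppargc1b (ENSMUSG00000033871, chr18:61298136-61400431, minus strand) encodes PGC-1beta, a relative of PGC-1alpha. It had 0.944, 1.37 and 0.613 FPKM in db/m-GABP-OE, against 1.86, 0.736 and 0.886 FPKM in db/m-veh. It had 1.81, 0.876 and 2.14 FPKM in db/db-GABP-KD, against 0.998, 1.11 and 1.76 FPKM in db/db-veh. The libraries of every group were spread out, with an SD of 32.1% to 52.7% of the group mean, and the groups overlapped. Per Ppargc1a, Ppargc1b averaged 0.309 ± 0.167 in db/m-GABP-OE, 0.593 ± 0.233 in db/db-GABP-KD, 0.587 ± 0.241 in db/db-veh and 0.432 ± 0.288 in db/m-veh (SD, n = 3), a ratio chosen after its values were seen and given without a test.

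Esrra (ENSMUSG00000024955, chr19:6910977-6921813, minus strand) encodes ERR-alpha, the nuclear receptor through which PGC-1 coactivators act on respiratory genes. It had 17.99, 20.01 and 10.97 FPKM in db/m-GABP-OE, against 12.5, 12.7 and 15.9 FPKM in db/m-veh. It had 9.76, 11.4 and 14.6 FPKM in db/db-GABP-KD, against 15.0, 5.59 and 8.08 FPKM in db/db-veh. The groups overlapped in both. Among the 10 genes Esrra had the lowest log2 fold change in db/db-veh compared with db/m-veh, -0.60 (SE 0.41, limma adjusted p = 0.61), through db/db-veh 2 and 3. With scaled values it was -0.24 (limma adjusted p = 0.844).

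Tfam (ENSMUSG00000003923, chr10:71225464-71238280, minus strand) encodes the protein that packages mitochondrial DNA and starts its transcription, and it was the gene with CCGGAAGT in the promoter sequence printed above. It had 2.65, 3.51 and 2.39 FPKM in db/m-GABP-OE, against 1.48, 2.61 and 2.80 FPKM in db/m-veh. It had 5.79, 2.10 and 2.499 FPKM in db/db-GABP-KD, against 2.43, 1.84 and 1.17 FPKM in db/db-veh. The groups overlapped in both, and the ratio of means for db/db-GABP-KD was 1.91, or 1.27 without db/db-GABP-KD 1. On the scaled values the log2 fold changes of Tfam were -0.09 (db/m-GABP-OE), 0.19 (db/db-GABP-KD) and 0.03 (db/db-veh), each with an SE of 0.30.

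Tfb1m and Tfb2m encode related proteins of the mitochondrial matrix. TFB2M acts as a transcription factor for the mitochondrial RNA polymerase, and TFB1M methylates the small ribosomal RNA. Tfb2m (ENSMUSG00000026492, chr1:179528055-179546267, minus strand) had 4.502, 4.998 and 5.605 FPKM in db/m-GABP-OE, against 4.68, 3.51 and 5.19 FPKM in db/m-veh. It had 9.92, 3.28 and 2.84 FPKM in db/db-GABP-KD, against 3.26, 2.08 and 4.36 FPKM in db/db-veh. Both comparisons overlapped, and the ratio of means for db/db-GABP-KD was 1.65, or 0.946 without db/db-GABP-KD 1. Once scaled, the 3 db/m-GABP-OE libraries, with 3.56, 3.83 and 4.22, were all below the 4.78, 4.25 and 4.79 of db/m-veh, where 4.7% of all genes were. In limma this was a log2 fold change of -0.23 (SE 0.26, adjusted p = 0.999).

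Tfb1m (ENSMUSG00000036983, chr17:3519256-3557781, minus strand) had 0.614, 0.685 and 0.516 FPKM in db/m-GABP-OE, against 0.848, 0.610 and 0.564 FPKM in db/m-veh. It had 0.427, 0.613 and 0.512 FPKM in db/db-GABP-KD, against 0.531, 0.324 and 0.289 FPKM in db/db-veh. Its db/db-veh libraries were all below those of db/m-veh, at 0.565 of the mean (exact permutation p = 0.1), where 14.4% of all genes were below as deposited. Those groups overlapped after scaling and the ratio was 0.727. Tfb2m per Tfb1m was 7.34, 7.29 and 10.9 in db/m-GABP-OE, against 5.52, 5.75 and 9.21 in db/m-veh. It was 23.3, 5.35 and 5.54 in db/db-GABP-KD, against 6.14, 6.44 and 15.1 in db/db-veh. That ratio, too, was chosen after its values were seen and has no test. It was highest in db/db-GABP-KD 1, where Tfb1m rested on 13 fragments.

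Whether the effects of both interventions differed was tested as an interaction. For the db/m-GABP-OE effect minus the db/db-GABP-KD effect, 0 of 10 genes passed limma, where 0.132% of all genes did, and 0 of 9 passed by voom, against 0.0158%. At an unadjusted p under 0.05 there were 0 by either, against 5.44% of all genes by limma and 4.06% by voom. After median of ratios 0 of 10 passed too, against 0.0775% of all genes, and 0 had an unadjusted p under 0.05, against 6.87%. The differences as deposited ran from -0.42 (Tfam, SE 0.53) to 0.11 (Gabpb1, SE 0.55) on the log2 scale.

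The 10 genes lay near the middle of all genes. Their median log2 fold change was 0.27 in db/m-GABP-OE (all genes 0.38), 0.47 in db/db-GABP-KD (all genes 0.42) and -0.20 in db/db-veh compared with db/m-veh (all genes -0.24). Values above the all-gene median were seen for 3, 6 and 5 of the 10. The scaled medians of the 10 were -0.10, 0.00 and 0.05. The signs of several genes turned with the scaling, so no direction is given for those. The log2 fold changes of Gabpa, Gabpb1, Gabpb2 and Nrf1 stayed above 0 on both scales in db/m-GABP-OE and db/db-GABP-KD, none past the test. That of Tfam did so in db/db-GABP-KD alone. For Gabpa they were 0.57 as deposited and 0.19 after scaling in db/m-GABP-OE, and 0.84 and 0.31 in db/db-GABP-KD. In db/db-veh compared with db/m-veh the sign of Gabpa turned, from -0.12 to 0.20.

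**Figure D4:**
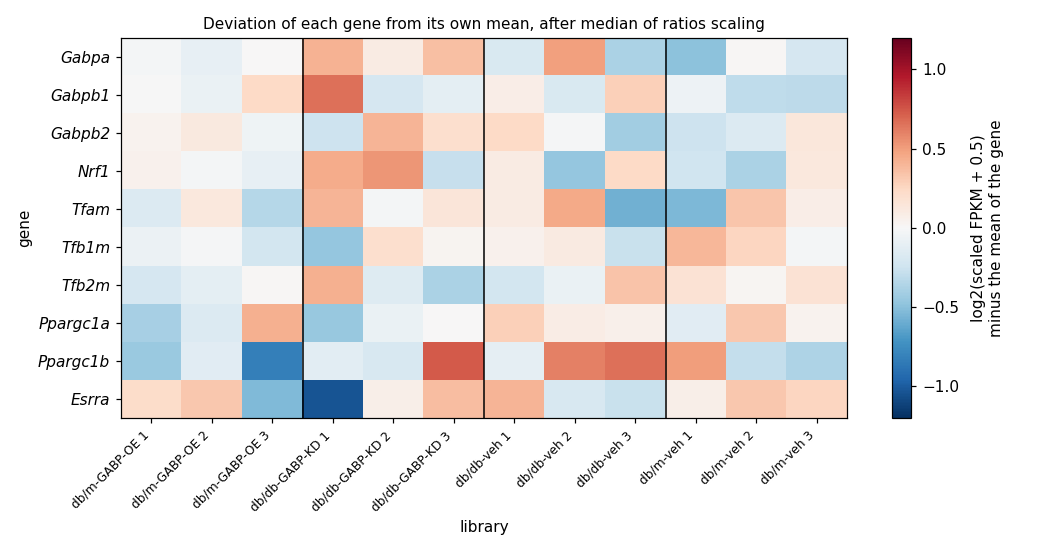
Deviation of each gene from its own mean over the 12 libraries (colour, log2 of scaled FPKM + 0.5) after median of ratios scaling, with libraries in columns and the 10 genes in rows. In db/db-GABP-KD 1 Gabpb1 was at its highest and Esrra, Ppargc1a and Tfb1m at their lowest of the 12 libraries.

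Of the 12 libraries as deposited, db/db-GABP-KD 1 was the highest for 5 of the 10 genes, and db/db-veh 2 or 3 was the lowest for 9. After scaling db/db-GABP-KD 1 was the highest for Gabpb1 and Tfb2m and the lowest for Tfb1m, Ppargc1a and Esrra. This library also had a scaled sum of 182 over the 8 proximal tubule markers, below the 343 to 984 of db/m-veh and the 422 to 628 of db/db-veh, and a sum of 215 over the 8 collecting duct markers, above the 58.0 to 111 of db/db-veh and within the 81.0 to 237 of db/m-veh. Such sums can be led by 1 gene. Over the 12 libraries as deposited, Slc34a1 reached 698 FPKM among the proximal tubule markers, where the next, Slc22a6, reached 144. Aqp2 reached 328 FPKM among the collecting duct markers, where the next, Atp6v1g3, reached 25.4. Lyz2 reached 88.5 FPKM among the leukocyte markers given below, where the next, Cd68, reached 13.8. The part of these marker levels in the values of the 10 genes was not tested. Other markers moved with the groups. The 8 leukocyte markers summed to 64.1 to 118 FPKM in db/m-GABP-OE, against 10.9 to 16.4 FPKM in db/m-veh, with Cd3e at 0 in 4 libraries. They summed to 14.5, 37.9 and 59.4 FPKM in db/db-GABP-KD, against 8.80 to 16.8 FPKM in db/db-veh, so that db/db-GABP-KD 2 and 3 lay above db/db-veh and db/db-GABP-KD 1 did not. The 12 markers of fat, muscle, adrenal gland and red blood cells, mostly hemoglobin, summed after scaling to 35.3 to 145 in db/db-GABP-KD, against 218 to 369 in db/db-veh, and the db/db-veh sums were all below the 494 to 1300 of db/m-veh. The 8 markers of thick ascending limb and distal convoluted tubule summed, after scaling, to 50.7 to 108 in db/db-GABP-KD, against 137 to 196 in db/db-veh. The part of any of these in the results was not tested, and in whole tissue fewer cells of a type and less RNA per cell cannot be told apart.

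The genes whose pattern over the 12 libraries was most like that of Gabpa were Spin1, Hsdl1, Atf2, Alg10b and Hp1bp3. Likeness was the root mean square difference of centred log2(FPKM + 0.5) after median of ratios, over 9306 genes with a mean of at least 1 FPKM and the other 9 genes of this group. It was 0.11 for Spin1 and 0.15 for Hp1bp3, against a median of 0.50 over all genes, and a gene with no change at all would be at 0.29. Tfam, at 0.22, ranked 94th by this measure. The other 8 were all farther than such a flat gene. Since the measure also grows with the spread of a gene itself, it cannot tell whether those 8 moved with Gabpa. Gabpb2 was at rank 1052 and Gabpb1 at 2015. Tfb1m, Tfb2m, Ppargc1a and Nrf1 followed between ranks 2823 and 3387, and Ppargc1b and Esrra were at 5608 and 6201. The libraries share their preparation and the size factors, and no test was made.

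Gabpa and Tfb2m each share a start region with a gene on the opposite strand. Atp5j, which encodes a coupling subunit of ATP synthase, starts 700 bases from Gabpa and shares 397 exon bases with it in GENCODE M21, so without a stated strand setting some fragments cannot be assigned to either. Atp5j had 35.6, 47.9 and 42.1 FPKM in db/m-GABP-OE, against 23.8, 24.1 and 33.9 FPKM in db/m-veh, and 38.3, 13.9 and 16.6 FPKM in db/db-GABP-KD, against 13.99, 8.002 and 18.43 FPKM in db/db-veh. Like Gabpa it was above db/m-veh in all 3 db/m-GABP-OE libraries as deposited, as were 30.4% of all genes tested. Its log2 fold change in that comparison was 0.62 as deposited and 0.19 after scaling. Unlike Gabpa it overlapped db/db-veh in db/db-GABP-KD. Its log2 fold change in db/db-veh compared with db/m-veh was -1.05 (SE 0.44, limma adjusted p = 0.37), where that of Gabpa was -0.12. After scaling these were -0.68 and 0.20. Cnst starts 103 bases from Tfb2m with no shared exon and had log2 fold changes of 0.54, 0.26 and -0.14 in the 3 comparisons as deposited. With scaled values they were 0.20, -0.17 and 0.13, so the sign turned in db/db-GABP-KD and in db/db-veh. None passed the test on either scale. Gabpb1, Gabpb2, Tfb1m and Esrra also overlap exons of opposite-strand genes, by 14, 328, 142 and 73 bases. Esrra shares 91 exon bases with the microRNA gene Mir6990 on its own strand as well. The levels of these 4 genes are uncertain to the extent of such overlaps.

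The wider network was read through 5 lists of genes, 70 of them tested. In each of the 3 comparisons 0 of 70 passed limma, where 1.9%, 0% and 0.093% of all genes did. At an unadjusted p under 0.05 there were 4 in db/m-GABP-OE, 11 in db/db-GABP-KD and 10 in db/db-veh compared with db/m-veh. Among all genes, 15.1%, 14.3% and 11.5% had an unadjusted p under 0.05. By voom 0 passed, against 0.491%, 0% and 0.0396% of all genes. In that fit 4, 14 and 11 had an unadjusted p under 0.05, against 14.2%, 14.9% and 12%. After median of ratios 0 passed, against 0.209%, 0.0388% and 0.171% of all genes. On that scale 1, 5 and 9 had an unadjusted p under 0.05, against 7.53%, 6.48% and 12%.

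The nuclear subunits of cytochrome c oxidase, classical GABP targets, were the list farthest from the all-gene median in db/db-GABP-KD and in db/db-veh. In db/db-GABP-KD compared with db/db-veh, 10 of 10 were above the all-gene median, with a list median log2 fold change of 1.26 as deposited and 0.66 after scaling. In db/db-veh compared with db/m-veh, 0 of 10 were above it, with medians of -1.15 and -0.78, and both comparisons share the db/db-veh libraries. In db/m-GABP-OE compared with db/m-veh, 8 of 10 were above it, with medians of 0.70 and 0.26. Cox6a1 had 290, 545 and 782 FPKM in db/m-GABP-OE, where db/m-veh averaged 265 ± 147. It had 649, 70.0 and 103 FPKM in db/db-GABP-KD, where db/db-veh averaged 69.3 ± 52.7. Its high db/db-GABP-KD mean came from the first library, and Cox5b showed the same with 113, 33.5 and 39.1 FPKM, against 27.0 ± 24.3 in db/db-veh (SD, n = 3).

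**Figure D5:**
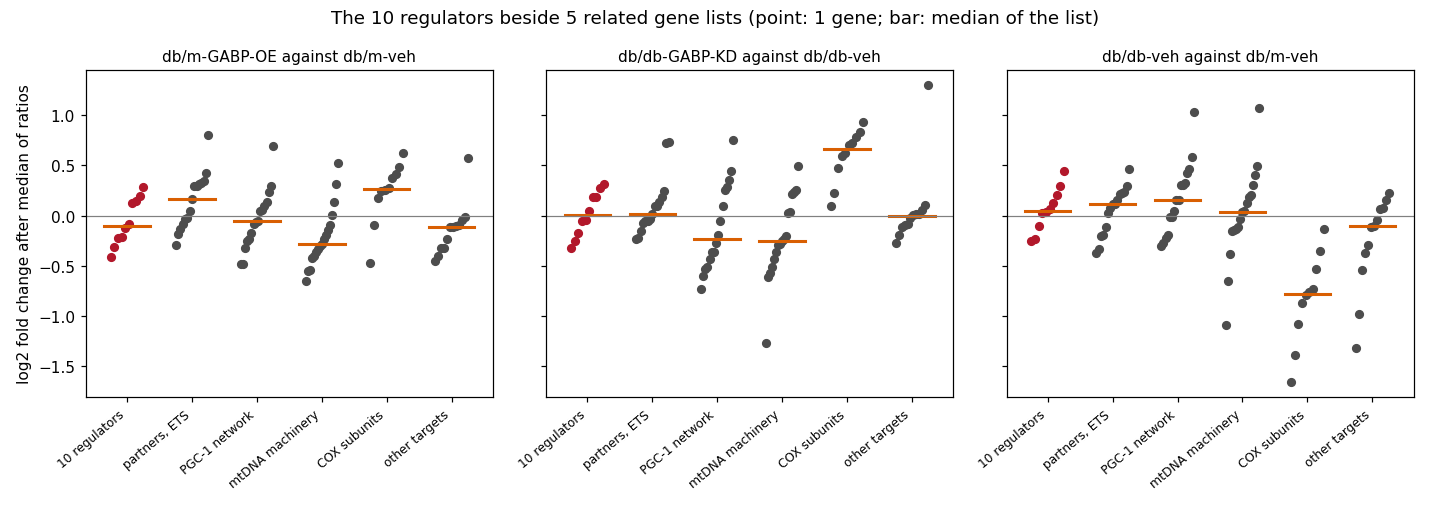
Log2 fold change after median of ratios (vertical axis) of each gene of the 10 regulators and of 5 related lists (1 point per gene, bar at the list median), in 3 comparisons of 3 against 3 libraries. The cytochrome c oxidase subunits have medians of 0.26, 0.66 and -0.78, and the 10 regulators -0.10, 0.00 and 0.05.

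The 15 GABP partners and ETS factors had scaled medians of 0.16 in db/m-GABP-OE, 0.01 in db/db-GABP-KD and 0.11 in db/db-veh. Etv6, an ETS repressor, had 4.15, 6.46 and 6.32 FPKM in db/m-GABP-OE, where db/m-veh averaged 2.36 ± 1.49 FPKM (limma adjusted p = 0.243). Hcfc1, a partner of GABP, had 10.7, 2.10 and 2.13 FPKM in db/db-GABP-KD, where db/db-veh averaged 1.48 ± 0.750 FPKM, again with the first library alone far above. The 16 genes of the PGC-1 network had scaled medians of -0.06, -0.24 and 0.15. Pparg, the nuclear receptor from which PGC-1 takes its name, had 0.712, 0.803 and 2.09 FPKM in db/m-GABP-OE, where db/m-veh averaged 0.320 ± 0.0442 FPKM. The log2 fold change of Pparg was 0.97 as deposited and 0.69 after scaling, with limma adjusted p values of 0.183 and 0.707. Pprc1, the third PGC-1 coactivator, had 6.42, 1.08 and 1.54 FPKM in db/db-GABP-KD, where db/db-veh averaged 0.846 ± 0.522 FPKM.

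The 17 tested genes of mitochondrial DNA upkeep and transcription had scaled medians of -0.28 in db/m-GABP-OE, -0.25 in db/db-GABP-KD and 0.04 in db/db-veh. Polrmt, the mitochondrial RNA polymerase, had 7.35, 5.72 and 4.77 FPKM in db/db-GABP-KD, where db/db-veh averaged 6.40 ± 2.34 FPKM. Its log2 fold change was -0.05 as deposited and -0.61 after scaling, with limma adjusted p values of 0.939 and 0.764. Tefm, the elongation factor of that polymerase, had 2.16, 0.413 and 0.580 FPKM in db/db-veh, where db/m-veh averaged 2.99 ± 1.19 FPKM (limma log2 fold change -1.29 with an SE of 0.40, adjusted p = 0.248). Scaled, that fold change was -1.09 (limma adjusted p = 0.273). The 12 other mitochondrial targets had scaled medians of -0.11, -0.01 and -0.11. Uqcrq had 187, 58.8 and 70.9 FPKM in db/db-GABP-KD, all above the 23.8, 11.3 and 52.4 FPKM of db/db-veh, where 17.3% of all genes were. Its limma log2 fold change there was 1.90 (SE 0.55, adjusted p = 0.337), or 1.30 after scaling. In db/db-veh compared with db/m-veh it was -1.695 (SE 0.55, adjusted p = 0.257), and both comparisons share the db/db-veh libraries. Hspe1, a mitochondrial chaperonin, had 9.503, 7.92 and 6.62 FPKM in db/db-veh, where db/m-veh averaged 21.0 ± 1.52 FPKM (limma log2 fold change -1.35 with an SE of 0.38, adjusted p = 0.245). Scaled, the log2 fold change of Hspe1 was -0.98 (limma adjusted p = 0.178).

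Genes with the GABP site found in Tfam were also read as a class. In db/m-GABP-OE, 880 tested genes held CCGGAAGT in a promoter window, and 0.568% of them passed limma, where 1.82% of the 10151 tested genes with any promoter window did. Their median log2 fold change was 0.32, against 0.38 for the genes with any window. After scaling, 0.114% passed, where 0.187% of the genes with any window did, with medians of -0.03 and 0.04. As deposited, in db/db-GABP-KD the medians were 0.50 and 0.43, and in db/db-veh compared with db/m-veh -0.32 and -0.24. The scaled medians were 0.04 and 0.00 in db/db-GABP-KD and -0.05 and 0.01 in db/db-veh, with no test of any of these differences.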

How the data were processed

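Values were FPKM per gene and library, deposited by the authors. HTSeq and GRCm39 are named, without versions, per the submitters' processing notes; the aligner, the annotation and whether strand was used were not given in the sources used here. With GENCODE M21 exon lengths (GRCm38), FPKM turned into whole fragments (tolerance 0.05) for 98.3% of genes with a length, so coordinates are given in GRCm38. Esrra came out whole only with a length of 4414 bases in place of 4387. No value column was left unused (0).

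Groups were taken from the sample titles. The test was limma 3.58.1 (R 4.3.3) on log2(FPKM + 0.5), for the 12897 genes that reached FPKM 0.3 in 3 or more libraries, with a mean per group, all 12 libraries in 1 fit, a variance trend, two-sided, called at a Benjamini-Hochberg adjusted p under 0.05. This scale understates changes of low genes. Single ratios were compared by exact permutation over libraries. The fit was tested on simulated data. Alternatives were other pseudocounts (0.1 and 1), filters and scalings, the replicate number as a block, fits of 2 groups, no trend, voom, and each library left out. Whether the numbers pair the libraries was checked by correlation of deviations from group means.

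All 10 genes are named. From each list and comparison up to 3 passing genes, or else the 2 farthest from the all-gene median with at least 1 FPKM, could be named, and so could opposite-strand genes starting within 1000 bases and the 5 genes most like Gabpa. Of those the text names the ones with values. The genes and lists were chosen with earlier results of these data known. Other steps used Python 3.11.15, scipy 1.17.1, numpy 2.4.6, pandas 2.3.3 and, for plots, matplotlib 3.10.9.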

Additional observations from a re-analysis of the deposited data

How the results depend on the processing

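For the 10 genes in 3 comparisons, 0 passed the test under any of the 24 alternatives that could be computed (Gabpb2 and Tfb1m did not reach the filter of FPKM 1, and Esrra was not in the voom fit), with smallest limma adjusted p values of 0.159 (Gabpb1, db/m-GABP-OE, 2 groups in the fit), 0.244 (Gabpa, db/db-GABP-KD, without db/db-GABP-KD 2) and 0.317 (Esrra, db/db-veh, without db/db-veh 1). Of 711 alternative log2 fold changes 651 kept their sign and 60 did not, none of them past the test. Many could not turn, since the estimate stayed the same when only the filter, the block, the variance trend or the fitted groups changed. It also stayed the same when a library of neither compared group was left out, so these counts do not measure stability. Signs turned after median of ratios, with or without the replicate block. In db/m-GABP-OE these were Tfam -0.086, Tfb2m -0.23, Ppargc1a -0.12 and Esrra -0.22. In db/db-GABP-KD they were Tfb1m -0.040, Tfb2m -0.052, Ppargc1a -0.32, Ppargc1b -0.25 and Esrra -0.18, and in db/db-veh Gabpa 0.20, Gabpb2 0.025, Nrf1 0.12, Tfam 0.034 and Ppargc1a 0.066. With an equal FPKM sum of nuclear genes they were Tfam -0.21, Tfb2m -0.35, Ppargc1a -0.24 and Esrra -0.35 in db/m-GABP-OE. In db/db-GABP-KD they were then Gabpb1 -0.047, Tfb1m -0.11, Tfb2m -0.16, Ppargc1a -0.43, Ppargc1b -0.35 and Esrra -0.29. In db/db-veh they were Gabpa 0.48, Gabpb2 0.21, Nrf1 0.33, Tfam 0.31, Tfb2m 0.19, Ppargc1a 0.35 and Esrra 0.078. The cause was not tested.

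Leaving out 1 library at a time, the log2 fold changes that turned ran, in db/m-GABP-OE, from -0.15 to 0.021 (Tfb1m), -0.0021 to 0.46 (Ppargc1a) and -0.33 to 0.14 (Ppargc1b). In db/db-GABP-KD they ran from -0.025 to 0.80 (Gabpb1), -0.024 to 0.80 (Tfb2m) and -0.037 to 0.38 (Ppargc1a), where Gabpb1 and Tfb2m turned without db/db-GABP-KD 1. In db/db-veh they ran from -0.11 to 0.29 (Gabpb1), -0.36 to 0.014 (Gabpb2), -0.24 to 0.21 (Nrf1) and -0.041 to 0.43 (Ppargc1b). The log2 ratio of Gabpb1 to Gabpa ran from -0.041 to 0.44 in db/m-GABP-OE, -0.79 to 0.038 in db/db-GABP-KD and -0.20 to 0.63 in db/db-veh. That of Gabpb2 to Gabpa ran from -0.18 to 0.24 in db/m-GABP-OE and -0.39 to 0.41 in db/db-GABP-KD, and with FPKM + 0.5 it was -0.21 in db/m-GABP-OE.

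Same-numbered libraries correlated by -0.48 to 0.38, and the best match under another number by -0.069 to 0.53. With 3 libraries per group this check cannot tell whether the numbers pair them. With the replicate block 0 of the 10 genes and 0 of the 70 list genes passed, and calls among all genes in db/m-GABP-OE were 277, against 245 without it. Those calls were 27 after median of ratios and 62 by voom. After median of ratios without db/db-GABP-KD 1, chosen after the data were seen, 1 list gene passed in db/db-GABP-KD and 1 in db/db-veh, Polg2 in both. The share of all genes that passed in that setting is not given here, so these counts cannot be set against it.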

Other observations

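Polg2, which encodes the accessory subunit of the mitochondrial DNA polymerase, was singled out after its values were seen, as the 1 gene of the 70 on the lists to pass in any comparison with its control. It had 0.951, 0.0802 and 0.0653 FPKM in db/db-GABP-KD, 0.982, 0.834 and 0.837 FPKM in db/db-veh and 0.301, 0.303 and 0.295 FPKM in db/m-veh. These rest on 35, 3 and 2 fragments in db/db-GABP-KD, 29, 28 and 28 in db/db-veh, and 12, 9 and 12 in db/m-veh. All db/db-veh libraries were above all of db/m-veh, where 1.46% of all genes were, and db/db-GABP-KD 2 and 3 were below db/db-veh while db/db-GABP-KD 1 was within its range. After median of ratios all 3 db/db-GABP-KD libraries, with 0.555, 0.0903 and 0.0712, were below the 1.06, 1.58 and 1.04 of db/db-veh, where 5.67% of all genes were. In db/m-GABP-OE it had 0.636, 0.449 and 0.962 FPKM, all above db/m-veh, as were 30.4% of all genes, and the groups overlapped after scaling.

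In limma as deposited, Polg2 did not pass in db/db-GABP-KD compared with db/db-veh (log2 fold change -0.82, SE 0.32, adjusted p = 0.345) or in db/db-veh against db/m-veh (0.79, SE 0.32, adjusted p = 0.345). After median of ratios without db/db-GABP-KD 1 the limma values were -1.56 (SE 0.24, adjusted p = 0.0273) and 1.07 (SE 0.21, adjusted p = 0.0494), and both comparisons share the db/db-veh libraries. That was 1 of 25 settings in each, with adjusted p values up to 0.726 and 0.807 in the others. The mean of the 3 db/db-GABP-KD libraries was 0.413 of that of db/db-veh as deposited and 0.195 after scaling, or 0.0823 and 0.0659 without db/db-GABP-KD 1. The interaction of both interventions passed for Polg2 in 2 of 24 settings, both without that library. Its limma adjusted p values there were 0.0418 as deposited and 0.0486 after median of ratios, against 0.483 as deposited with all 12 libraries. The share of all genes that passed the interaction in those 2 settings is not given here.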
